A study of Homo sapiens with 30 samples.

Results

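Aminoacyl-tRNA synthetases attach each amino acid to its transfer RNAs, the step that makes the genetic code readable by the ribosome. One set of enzymes works in the cytosol and a second set, also encoded in the nucleus, works in mitochondria, and several of the cytosolic enzymes sit together in a multi-synthetase complex. Their genes are known as growth-linked genes: many carry the DNA element through which ATF4, the transcription factor of the amino acid response, acts, and MYC, which drives growth and protein synthesis, is known to bind at many of them. The members described here are the genes of 36 synthetase symbols, chosen by name and not by any measured value, though with earlier results of these data known. Of these, 35 were in the nascent transcription table of 20367 gene symbols (20 cytosolic and 15 mitochondrial), and IARS2, the mitochondrial isoleucyl enzyme, was not analysed here. The table uses older symbols (AARS for AARS1, and so on), which are kept here.

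All samples were G401 cells, a line from a rhabdoid tumour of the kidney that lacks SNF5 (SMARCB1), a core subunit of the SWI/SNF chromatin remodelling complex. The cells carried a lentiviral, tetracycline-inducible EGFP, OMOMYC or SNF5, and every group, EGFP controls included, was given doxycycline at 1 µg/ml for 24 h after selection. OMOMYC is a MYC mutant that pairs with MYC and its partners and blocks their function. The cells were transduced populations of 1 cell line, and the study describes the samples of a group as independent experiments or biological replicates, so p-values measure the spread between experiments in this line. PRO-seq, which maps actively transcribing RNA polymerase, had 3 samples in each group, ATAC-seq, which maps open chromatin, also had 3, and MYC ChIP-seq had 2.

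SNF5 itself checked the labels of the 3 SNF5 PRO-seq samples, which had 2870, 4467 and 3440 gene body reads of SMARCB1. The other 6 PRO-seq samples had 1 to 6 reads. Such reads do not tell EGFP from OMOMYC samples and do not bear on the ChIP-seq and ATAC-seq labels. PTPRC, PECAM1, ALB and CD3E, markers of blood, endothelial and liver cells, had 0 to 9 gene body reads in any sample. Gene body totals ranged from 28444943 to 46957634 reads per sample, while promoter-proximal reads made up 1.46 to 1.97% of the reads in the 3 samples numbered 1, 8.63 to 10.3% in those numbered 2 and 4.21 to 5.13% in those numbered 3.

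Promoter sequences came first, since they are what the factors read. RefSeq promoters (GRCh38.p14, 250 bases before to 50 after a start) were at hand for 29 of the 35 genes, and not for AARS2, DARS, LARS, VARS, VARS2 and YARS. The core of the amino acid response element, searched as TGATGNAA on both strands, lay in the promoters of 7 of 16 cytosolic genes (43.8%) and 1 of 13 mitochondrial genes (7.69%), against 4.46% of all 27305 genes with such a sequence. The 7 cytosolic windows are shown because they group the genes whose transcription is given below. Each is written 5′ to 3′ on the strand of its gene, and capitals mark the core or its reverse complement.

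AARS: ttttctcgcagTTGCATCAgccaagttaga (chr16:70289675-70289704, minus strand)
CARS: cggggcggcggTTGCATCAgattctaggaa (chr11:3057407-3057436, minus strand)
GARS: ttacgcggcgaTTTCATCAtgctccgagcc (chr7:30594834-30594863, plus strand)
IARS: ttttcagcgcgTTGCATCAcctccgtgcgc (chr9:92293692-92293721, minus strand)
MARS: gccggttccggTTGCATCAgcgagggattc (chr12:57488053-57488082, plus strand)
NARS: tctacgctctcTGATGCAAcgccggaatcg (chr18:57621804-57621833, minus strand)
TARS: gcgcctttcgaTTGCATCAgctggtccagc (chr5:33440956-33440985, plus strand)

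The cores of CARS, GARS, IARS and MARS began 2, 33, 13 and 4 bases before a RefSeq start, and those of NARS and TARS 14 and 2 bases after it, while the core of AARS began 187 bases before. The canonical E-box bound by MYC and its partner MAX, CACGTG, which reads the same on both strands, was in the promoters of 4 of the 29 genes (13.8%), against 8.77% of all genes. These were IARS, the cytosolic isoleucyl enzyme, and the mitochondrial CARS2, EARS2 and MARS2, and the E-box is in capitals in each. A match describes letters in a window and not a site in use.

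CARS2: tgctgggatgcaCACGTGcttcgctaacag (chr13:110706501-110706530, minus strand)
EARS2: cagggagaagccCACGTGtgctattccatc (chr16:23557348-23557377, minus strand)
IARS: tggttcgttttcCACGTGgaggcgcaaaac (chr9:92293866-92293895, minus strand)
MARS2: atgcgcctctcaCACGTGctgtcagaacgc (chr2:197705346-197705375, plus strand)

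To see where MYC was found, peaks called in each ChIP-seq sample on hg19 were placed within 1 kb of annotated starts. In EGFP cells, 8 of 35 synthetase genes had a MYC peak summit in both samples (22.9%), against 4.97% of all genes in the table. Among genes with enough gene body reads to test, 7 of 33 members had one, against 6.34% of all 15060. The 8 were the cytosolic IARS, YARS, FARSA, FARSB, VARS and LARS and the mitochondrial WARS2 and EARS2. EGFP sample 2, with 5396 peaks in all, had a summit at 27 of the 35 (77.1%, against 25.8% of all genes), while sample 1, with 940 peaks, had only the 8. No summit was found in either OMOMYC sample. Each had 0 peaks once entries named as fake were left out, where the study's reporting summary gives 1. The SNF5 samples had 137 and 27 peaks, and YARS in sample 1 was the single synthetase gene among them.

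Fold enrichment over local background, as the peak caller gave it, put IARS and EARS2 highest among the synthetases. IARS (start at chr9:95056038, minus strand) reached 7.91 in EGFP sample 1 and 18.4 in sample 2, with the summit of sample 2 in an exon outside the coding part, 3 bp from an annotated start. EARS2, the mitochondrial glutamyl enzyme (chr16:23568696, minus strand), reached 11.0 and 16.2, with both summits in a coding exon. YARS, the tyrosyl enzyme, had 7.57 and 8.68 with EGFP and 6.14 in sample 1 with SNF5, so its SNF5 peak was the weakest of its 3. LARS, the leucyl enzyme, gave 3.74 and 9.65, VARS, the valyl enzyme, 6.82 and 8.82, and WARS2, the mitochondrial tryptophanyl enzyme, 6.21 and 8.50. The pair of subunits of the phenylalanyl enzyme had the lowest values of the 8 in EGFP sample 2, FARSB with 5.16 and 6.55 and FARSA with 4.0 and 4.80. Of the 19 genes with a summit in EGFP sample 2 only, DARS, the aspartyl enzyme, had 12.2 and MARS2, the mitochondrial methionyl enzyme, 10.8, both above most of the 8. An E-box lay within 100 bp of the summit at 3 of the 27 genes (11.1%): EARS2, MARS2 and VARS. The share over all 5396 peaks of EGFP sample 2 was 26.1%. By group, it was 2 of the 8 genes with a summit in both EGFP samples (25.0%) and 1 of the 19 others (5.26%). The window at VARS, on the plus strand of hg19, was at chr6:31763477-31763506.

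VARS: gcagccggcgccCACGTGttcccccctttg

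**Figure D1:**
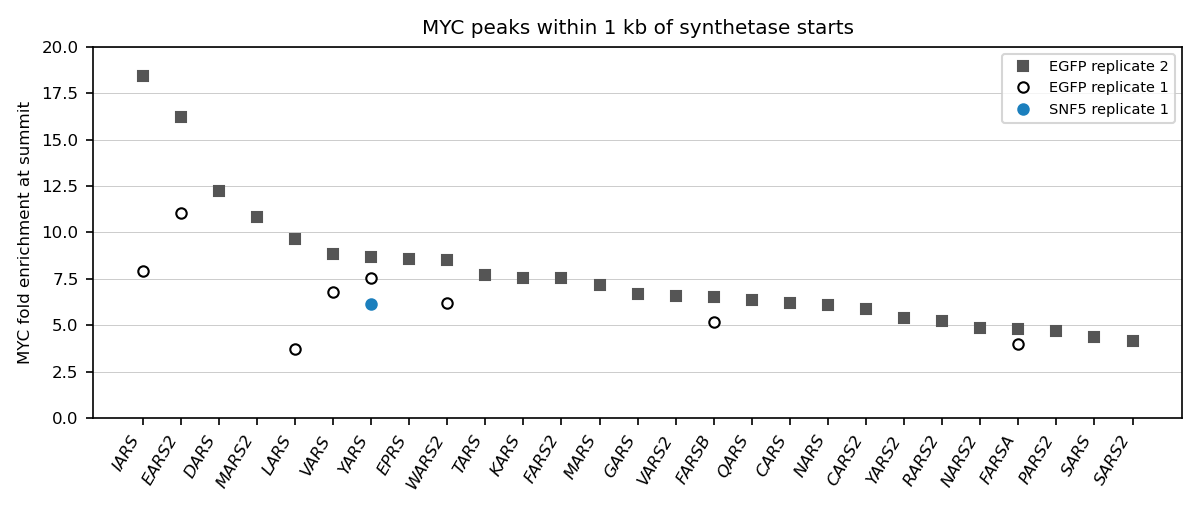
MYC fold enrichment at the peak summit nearest each synthetase start (y axis, ratio to local background) for the 27 genes with a peak, in EGFP replicate 2 (squares), EGFP replicate 1 (open circles) and SNF5 replicate 1 (blue). IARS and EARS2 stand highest in EGFP replicate 2, at 18.4 and 16.2, and YARS is the only gene with a SNF5 point, at 6.14.

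Most synthetase starts lay in open chromatin in every group. A summit within 1 kb of a start in at least 2 of 3 ATAC-seq samples was found at 31 of 35 genes in EGFP cells (against 44.3% of all genes), 30 in OMOMYC cells (against 42.9%) and 34 in SNF5 cells (against 55.8%). FARSA had no summit in any of the 9 samples. QARS, VARS and VARS2 reached the mark only with SNF5, and AARS2 in EGFP and SNF5 cells. QARS, the glutaminyl enzyme, had a summit in EGFP sample 2 (fold 4.74) and in SNF5 samples 1 and 2 (4.84 and 5.99). The samples held 7260 to 33596 peaks, the 3 SNF5 samples more than any EGFP sample, and the part of these numbers in the counts was not tested. HARS and HARS2 share 1 summit in each of the 8 samples that had one, and their starts lie 47 bp apart on opposite strands.

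Levels of transcription were read from gene body counts, from 1 kb past the start to the end of the gene, given here as RPKM, with the library total taken as the scaled gene body reads. VARS and VARS2 were listed at 0 reads in every sample, so 33 genes could be tested. All 19 cytosolic genes lay above the median of all tested genes in EGFP cells (1.23), from 1.55 for EPRS, the glutamyl-prolyl enzyme, to 5.41 for NARS, the asparaginyl enzyme, with a median of 2.97. Mitochondrial genes were lower, with a median of 1.87 over 14 genes and a range from 0.476 for WARS2 to 4.04 for MARS2, and 10 of 14 were above the all-gene median. FARS2, the mitochondrial phenylalanyl enzyme, whose gene body spans 509233 bp, was among the low ones.

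**Figure D2:**
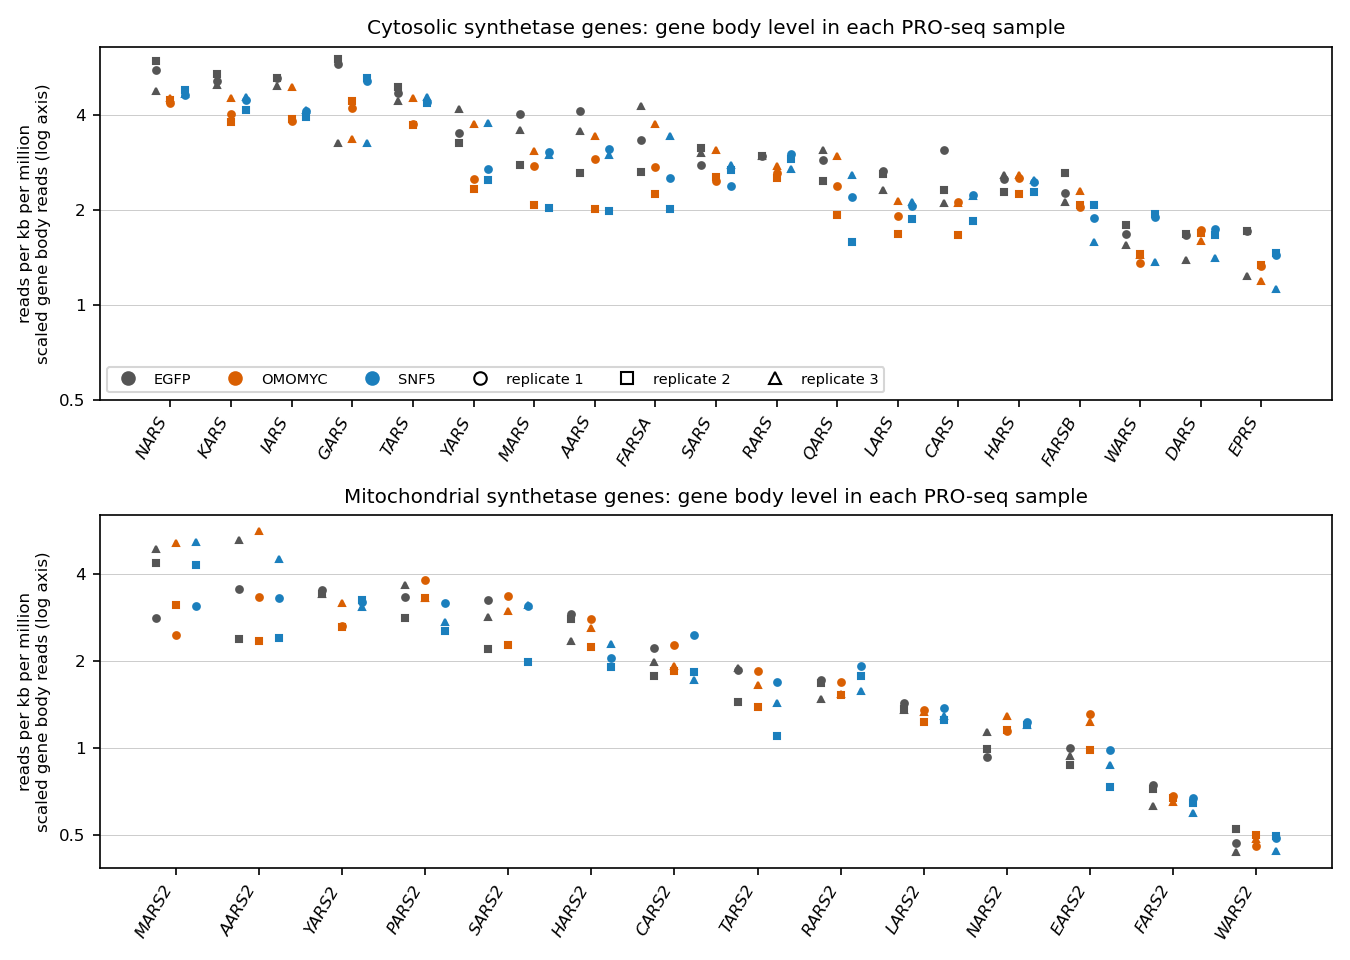
Gene body level (RPKM over scaled gene body reads, log axis) of the 19 cytosolic (upper panel) and 14 mitochondrial (lower panel) synthetase genes with reads, 1 point per PRO-seq sample, coloured by construct and shaped by replicate number. Cytosolic genes run from about the level of EPRS (EGFP mean 1.55) to that of NARS (5.41), and mitochondrial genes from WARS2 (0.476) to MARS2 (4.04).

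SNF5 against EGFP asked what restoring the missing subunit did to transcription of these genes. With SNF5, gene body counts fell at 9 of 19 cytosolic genes and 2 of 14 mitochondrial genes, where 16.5% of all 15060 tested genes fell, and rose at 1 mitochondrial gene, where 17.6% of all rose. The genes that fell were AARS, FARSA, FARSB, IARS, KARS, LARS, MARS, QARS and YARS, and the mitochondrial HARS2 and TARS2, and the gene that rose was NARS2 (edgeR quasi-likelihood test with replicate number as a block, Benjamini-Hochberg adjusted p below 0.05). The median log2 fold change was -0.24 for cytosolic and -0.10 for mitochondrial genes, against -0.03 for all genes. The genes that fell did so to between 0.745-fold and 0.848-fold. None of the 12 passed without replicate 1 or without replicate 2 of each group, or without the block. Without replicate 3, 22 members passed (19 lower and 3 higher), as did 8493 of all 14939 genes tested there.

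FARSA, a subunit of the phenylalanyl enzyme, had gene body levels of 3.33, 2.64 and 4.27 in EGFP samples 1 to 3 and 2.51, 2.01 and 3.42 in SNF5 samples. FARSB, the partner subunit, had 2.25, 2.62 and 2.12 against 1.88, 2.06 and 1.58. FARSB levels with SNF5 all lay below those with EGFP, while the FARSA groups overlapped because levels moved with replicate number in both groups. Of 33 members, 6 lay wholly below EGFP with SNF5 and 1 wholly above, against 8.07% and 11.0% of all 15060 genes. The log2 fold changes were -0.37 for FARSA (SE 0.066, adjusted p = 0.00345 by edgeR) and -0.34 for FARSB (SE 0.095, adjusted p = 0.0231 by edgeR). QARS changed most of the members that fell, with 2.87, 2.46 and 3.08 against 2.2, 1.57 and 2.57 (log2 fold change -0.42, SE 0.097, adjusted p = 0.0103 by edgeR). Each of its SNF5 samples was below the EGFP sample of the same number.

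Of the multi-synthetase complex, 5 of 8 genes fell with SNF5 (IARS, KARS, LARS, MARS and QARS), where 16.5% of all tested genes fell. The 3 others, DARS, EPRS and RARS, did not pass. IARS levels were 5.23, 5.22 and 4.94 in EGFP and 4.09, 3.94 and 4.13 in SNF5 samples, with no overlap and little spread within a group. KARS, the lysyl enzyme, had 5.12, 5.36 and 4.96 against 4.44, 4.14 and 4.53, and LARS had 2.66, 2.60 and 2.31 against 2.06, 1.87 and 2.11. Neither gene had overlapping groups. MARS, the methionyl enzyme, had 4.01, 2.78 and 3.58 against 3.05, 2.02 and 2.98, lower in each numbered pair although the groups overlapped. MARS fell by 0.37 on the log2 scale (SE 0.070, adjusted p = 0.00452 by edgeR). On the opposite strand MARS overlaps DDIT3, a gene of the stress response. The study places its promoter window on the coding strand and gives no strand for the gene body. Whether reads of DDIT3 entered the MARS counts was not tested.

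AARS, the alanyl enzyme, had 4.1, 2.61 and 3.54 in EGFP and 3.10, 1.98 and 2.98 in SNF5 samples, and YARS had 3.5, 3.26 and 4.15 against 2.70, 2.48 and 3.75. Both were lower in each numbered pair. Among mitochondrial genes, TARS2, the threonyl enzyme, had 1.87, 1.44 and 1.90 against 1.70, 1.10 and 1.43, and NARS2, the asparaginyl enzyme, had 0.929, 0.996 and 1.14 against 1.23, 1.2 and 1.2. NARS2 was the only member that rose, by 1.19-fold (log2 fold change 0.25, SE 0.065, adjusted p = 0.0182 by edgeR), with its 3 SNF5 samples above all EGFP samples. WARS2 did not pass, with 0.468, 0.524 and 0.437 in EGFP and 0.489, 0.495 and 0.439 in SNF5 samples.

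HARS and HARS2, the cytosolic and mitochondrial histidyl enzymes, are transcribed apart from starts 47 bp from each other. HARS levels were 2.5, 2.27 and 2.57 in EGFP, 2.51, 2.25 and 2.57 in OMOMYC and 2.45, 2.27 and 2.49 in SNF5 samples, a log2 fold change of -0.03 with SNF5 (SE 0.059). HARS2 had 2.92, 2.79 and 2.36 in EGFP, 2.80, 2.23 and 2.60 in OMOMYC and 2.06, 1.92 and 2.29 in SNF5 samples. HARS2 fell with SNF5 (log2 fold change -0.36, SE 0.12, adjusted p = 0.0437 by edgeR), with every SNF5 sample below every EGFP sample. Whether the 2 genes responded differently was not tested.

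OMOMYC against EGFP asked what blocking MYC did to the same genes, and it shares the EGFP samples with the comparison above. With OMOMYC, gene body counts fell at 6 of 19 cytosolic genes (AARS, KARS, LARS, MARS, NARS and YARS), where 4.42% of all tested genes fell. They fell at 0 of 14 mitochondrial genes by edgeR. An unadjusted p under 0.05 in either direction was reached by 3 of these 14 and by 4388 of all 15060 genes. EARS2 was the 1 member that passed as higher, where 4.1% of all genes did. NARS2 did not pass by edgeR but was higher in all 3 numbered pairs (log2 ratios 0.305, 0.213 and 0.181). Each of its OMOMYC samples lay above every EGFP sample, and it passed with DESeq2. The median log2 fold change was -0.26 for cytosolic genes, -0.02 for mitochondrial genes and 0 for all genes, and DARS was the 1 cytosolic gene of 19 with a positive value. None of the 7 passed without replicate 1 or without replicate 2 of each group, or without the block. Without replicate 3, 22 members passed (20 lower and 2 higher), as did 6716 of all 14939 genes tested there.

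LARS changed most, with gene body levels of 1.91, 1.67 and 2.13 in OMOMYC against 2.66, 2.60 and 2.31 in EGFP samples (log2 fold change -0.41, SE 0.088, adjusted p = 0.0317 by edgeR). MARS had 2.75, 2.07 and 3.06 against 4.01, 2.78 and 3.58, and YARS 2.5, 2.32 and 3.74 against 3.5, 3.26 and 4.15. Only LARS of these had groups that did not overlap, but each gene was lower in all 3 numbered pairs. AARS had 2.89, 2.01 and 3.42 with OMOMYC and sat at the threshold (log2 fold change -0.31, adjusted p = 0.0499 by edgeR). KARS had 4.01, 3.79 and 4.53 and NARS 4.34, 4.45 and 4.52, against 5.53, 5.93 and 4.75 for NARS in EGFP samples. Both lay wholly below their EGFP groups. With OMOMYC, 8 of 33 members did so and 1 lay wholly above, against 5.46% and 5.97% of all 15060 genes.

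The 7 cytosolic genes with the amino acid response core in their promoters had log2 fold changes with OMOMYC from -0.40 to -0.23, with a median of -0.30, and 3 of the 7 passed the test (AARS, MARS and NARS). The 9 cytosolic genes with a promoter sequence but no core ran from -0.33 to 0, with a median of -0.23, and 1 of the 9 passed (KARS). With SNF5 the medians were -0.25 and -0.20, with 3 of 7 and 4 of 9 passing. All of these calls were falls, and 4.42% of all tested genes fell with OMOMYC and 16.5% with SNF5. The difference between these sets was not tested.

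EARS2 was the 1 member to pass as higher with OMOMYC by edgeR. Its gene body levels were 1.00, 0.877 and 0.937 in EGFP, 1.32, 0.988 and 1.23 in OMOMYC and 0.986, 0.736 and 0.877 in SNF5 samples, so it was higher with OMOMYC than with EGFP in all 3 numbered pairs. It rose 1.25-fold with OMOMYC (log2 fold change 0.32, SE 0.073, adjusted p = 0.035 by edgeR), and its value with SNF5 was -0.12 (SE 0.075). Set directly against OMOMYC, SNF5 gave a log2 fold change of -0.44 at EARS2 (SE 0.073, adjusted p = 0.00372 by edgeR), the single member to pass in that comparison, where 18.9% of all genes did. The log2 ratios of SNF5 to OMOMYC samples of the same number were -0.42, -0.42 and -0.49. That call was lost without replicate 1 (-0.46) and without the block. Without replicate 3, 15 members passed, EARS2 among them, as did 6232 of all 14939 genes tested there. WARS, the cytosolic tryptophanyl enzyme, had the highest value in that comparison, with 1.89, 1.93 and 1.36 in SNF5 against 1.36, 1.45 and 1.43 in OMOMYC samples (log2 fold change 0.28, adjusted p = 0.0825 by edgeR). Its SNF5 sample 3 lay within the range of the OMOMYC samples.

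**Figure D3:**
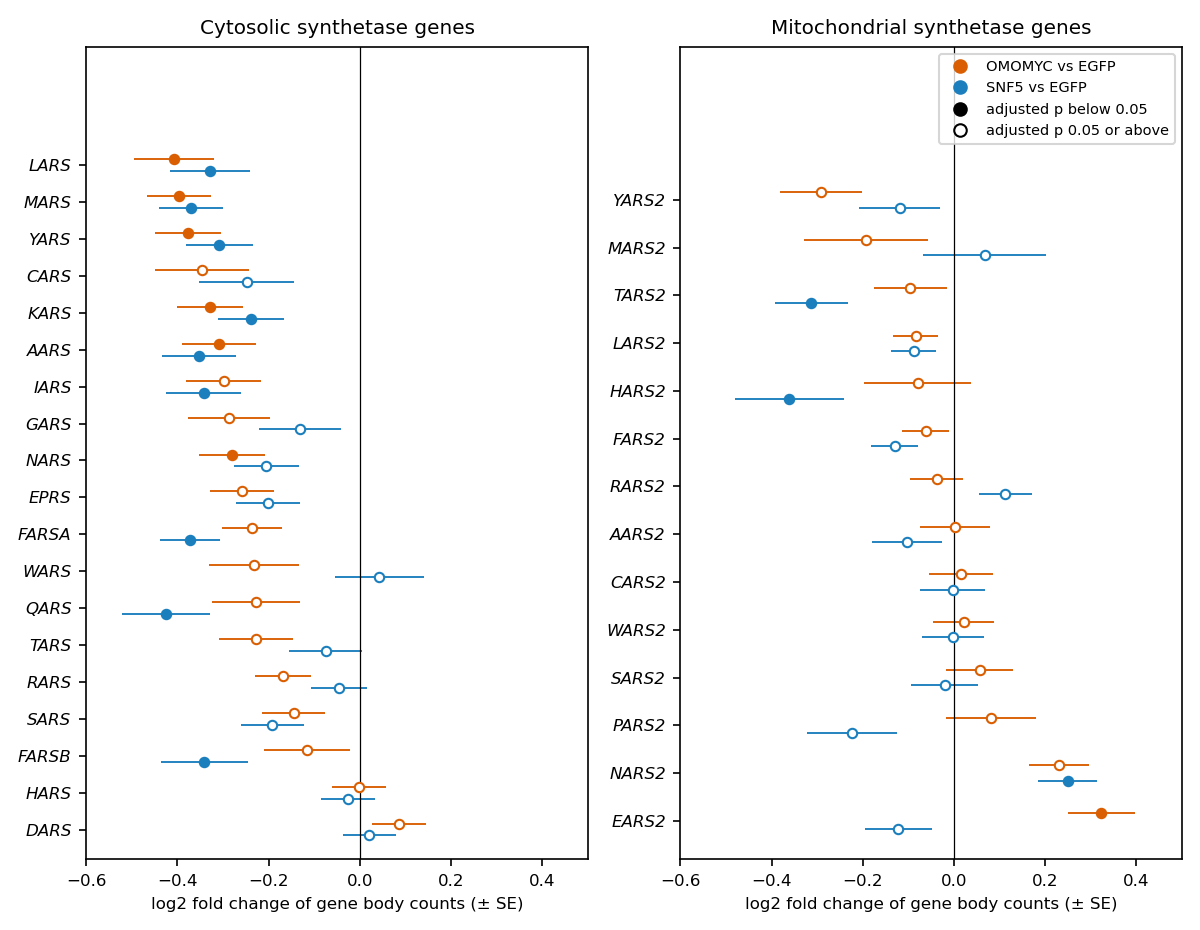
Log2 fold change of gene body counts with its standard error for each cytosolic (left) and mitochondrial (right) synthetase gene, OMOMYC against EGFP in orange and SNF5 against EGFP in blue, filled where the adjusted p was below 0.05. Most cytosolic points lie left of 0, with medians of -0.26 and -0.24, while mitochondrial points sit on both sides, and EARS2 has its OMOMYC point at 0.32 and its SNF5 point at -0.12.

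The size of these changes differed between replicate numbers. The median log2 ratio of OMOMYC to EGFP samples of the same number over cytosolic genes was -0.35 in replicate 1, -0.38 in replicate 2 and -0.05 in replicate 3. For SNF5 these medians were -0.26, -0.33 and -0.13. Replicate 3 thus had the smallest median in both comparisons. Of the 33 genes, 19 were lower with SNF5 in all 3 numbered pairs (57.6%, against 31.6% of all tested genes), and 16 were lower with OMOMYC (48.5%, against 27.5%). Without the replicate block 0 members passed, with 225 calls among all genes for SNF5 and 1 for OMOMYC, against 5131 and 1284 with it. Across all 15060 genes the log2 ratios of OMOMYC to EGFP correlated at Pearson's r of 0.584 between replicates 1 and 2, and at 0.268 and 0.31 between each of these and replicate 3, which is a correlation over genes that are not independent.

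**Figure D4:**
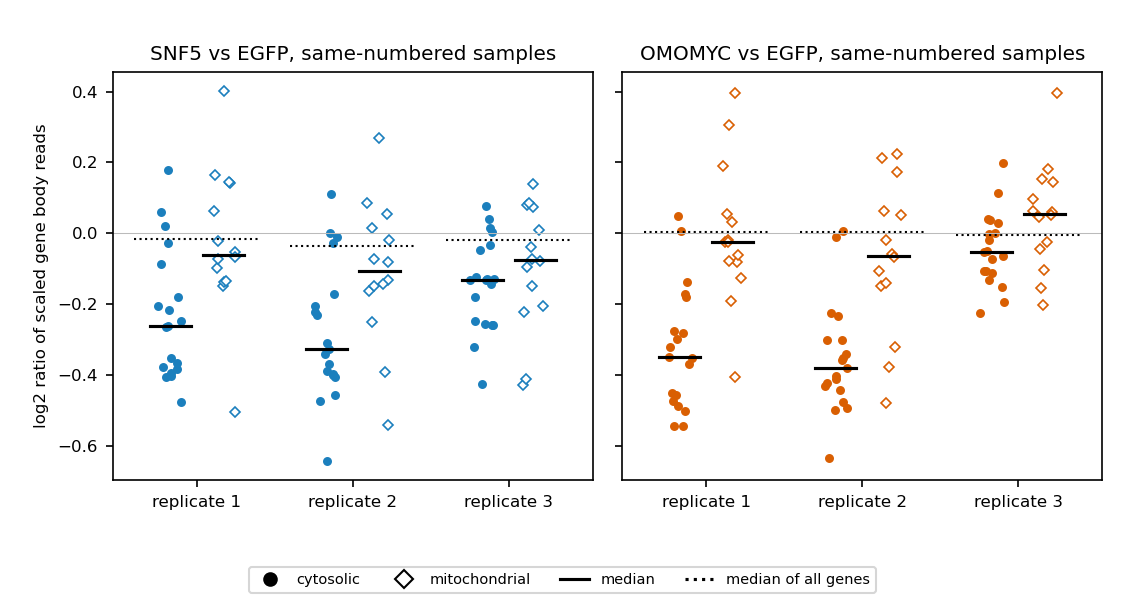
Log2 ratio of scaled gene body reads between samples of the same replicate number, SNF5 to EGFP (left) and OMOMYC to EGFP (right), 1 point per gene, cytosolic filled and mitochondrial open, with medians as bars and the median of all tested genes dotted. The cytosolic median with OMOMYC is -0.35 and -0.38 in replicates 1 and 2 and -0.05 in replicate 3.

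At promoters, polymerase was taken as the reads of the densest 50 bp stretch no more than 500 bp to either side of a start. No synthetase gene passed the test in promoter-proximal counts for SNF5 against EGFP (4.27% of all 11241 tested genes did), OMOMYC against EGFP (1.8%) or SNF5 against OMOMYC (0.827%), by edgeR or by DESeq2. At an unadjusted p under 0.05 there were 5, 3 and 2 of 33 members by edgeR, and 2257, 1740 and 1550 of all 11241 genes. IARS had the highest value against EGFP with both constructs, with promoter-proximal levels of 2.51, 6.06 and 3.22 RPM (over the same scaled total) in EGFP, 2.72, 11.7 and 6.16 in OMOMYC and 1.78, 11.0 and 7.05 in SNF5 samples. It was higher with each construct in replicates 2 and 3. MARS2 had the lowest value with both, with 0.894, 6.23 and 8.4 in EGFP, 0.810, 4.45 and 4.70 in OMOMYC and 1.06, 5.02 and 3.37 in SNF5 samples. Its log2 fold changes were -0.57 with each, and the largest paired differences were those of replicate 3. The all-gene median was 0.13 with OMOMYC and -0.05 with SNF5 on this scale, so the OMOMYC values are to be read against a shift of the whole table, which was -0.03 with each region scaled by its own total. Between the constructs, HARS had the highest value and FARS2 the lowest. HARS had 1.46, 5.78 and 5.16 with SNF5 against 0.810, 4.72 and 3.88 with OMOMYC, and FARS2 had 1.09, 9.90 and 3.03 against 1.79, 11.8 and 5.28. Each ran the same way in all 3 numbered pairs, and neither passed (adjusted p = 0.325 and 0.239 by edgeR).

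For a few genes the window may not cover the start in use. At YARS the table's start is at 33283633 on chromosome 1, while the annotated start nearest the MYC summit is at 33282958, beyond the reach of the window, and the gene had 8 to 30 promoter-proximal reads per sample. At CARS2, the mitochondrial cysteinyl enzyme, the table's start is at 111358480 on chromosome 13 and the start nearest the summit at 111364833, with 19 to 53 reads per sample.

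The pausing index, the density of reads in the promoter window over that in the gene body, was higher at 1 member, IARS, with SNF5 (2.02% of all 11171 tested genes were higher) and with OMOMYC (2.18%). Between SNF5 and OMOMYC no member passed by edgeR (1.23% of all genes did). An unadjusted p under 0.05 was reached there by 5 of 33 members and by 1544 of all 11171 genes. The IARS index was 9.61, 23.2 and 13.0 in EGFP, 14.2, 60.5 and 25.3 in OMOMYC and 8.71, 55.8 and 34.2 in SNF5 samples. It was higher with OMOMYC in all 3 numbered pairs, and with SNF5 in replicates 2 and 3 but not in replicate 1, whose windows held 87 and 72 reads. The change was 1.98-fold with OMOMYC (log2 0.99, SE 0.23, adjusted p = 0.0126 by edgeR) and 1.87-fold with SNF5 (log2 0.90, SE 0.23, adjusted p = 0.0163 by edgeR). Without replicate 2 neither passed, at 0.77 and 0.68, and without replicate 3 the value with SNF5 was 0.66 and did not pass, while NARS then did.

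**Figure D5:**
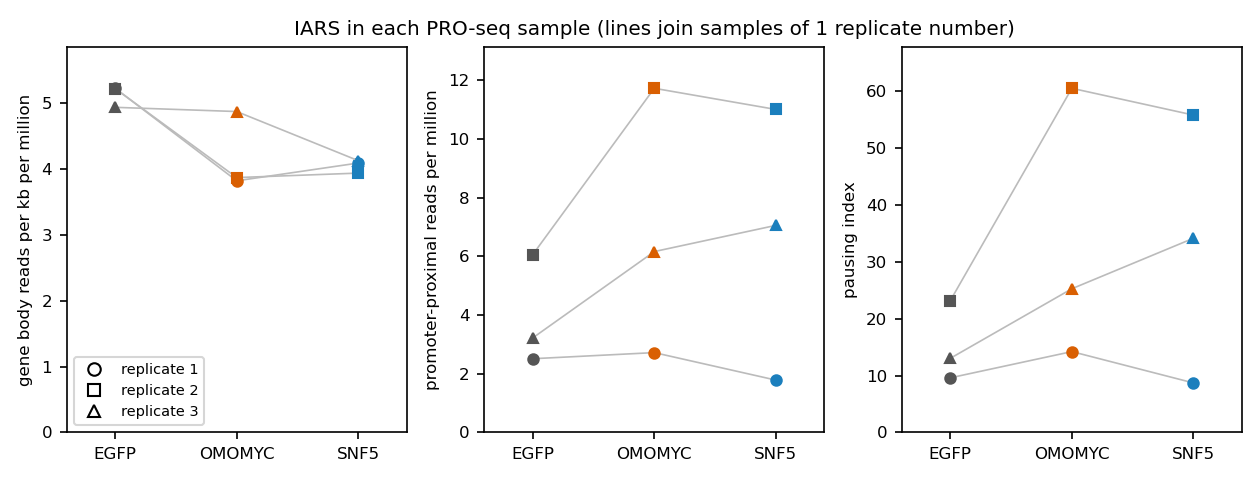
IARS in the 9 PRO-seq samples, as gene body level (left, RPKM), promoter-proximal level (middle, RPM) and pausing index (right, a ratio), with grey lines joining samples of the same replicate number. Gene body levels are lower with SNF5 in all 3 replicates, and the index is higher with both constructs in replicates 2 and 3, from 23.2 to 60.5 and 55.8 in replicate 2.

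Other members had no passing change in the index. MARS2 had the lowest values against EGFP, with 6.34, 28.4 and 34.2 in EGFP, 6.57, 28.3 and 18.4 in OMOMYC and 6.82, 23.2 and 13.0 in SNF5 samples. TARS, the threonyl enzyme, was next to IARS with OMOMYC among genes with an adjusted p near the threshold, at 4.70, 49.0 and 31.2 in EGFP and 7.28, 115 and 40.1 in OMOMYC samples (log2 fold change 0.76, adjusted p = 0.0562 by edgeR). TARS had 5.07, 71.1 and 30.1 with SNF5, the lowest value of SNF5 against OMOMYC (log2 -0.55). HARS had the highest there, with 11.9, 51.0 and 41.5 in SNF5 against 6.45, 42.0 and 30.2 in OMOMYC samples. In every group the index of these 4 genes was lowest in replicate 1, as was the share of promoter-proximal reads. The median over cytosolic genes was 0.33 with OMOMYC and 0.15 with SNF5, against 0.14 and 0.01 for all genes, and scaling each region by its own total moved the OMOMYC all-gene median to -0.01 and the median of all members from 0.20 to 0.03.

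By enzyme class, gene body counts fell with SNF5 at 5 of 16 class I genes and 6 of 17 class II genes, and with OMOMYC at 3 of each, where 16.5% and 4.42% of all tested genes fell. Of 8 complex members, 3 fell with OMOMYC (KARS, LARS and MARS). Of the genes bound by MYC in both EGFP samples, 7 could be tested: 5 fell with SNF5 (FARSA, FARSB, IARS, LARS and YARS, median over the 7 of -0.33), against 6 of the 26 other members (median -0.12). With OMOMYC, 2 of the 7 fell and EARS2 rose (median -0.24), against 4 of 26 that fell (median -0.16). The difference between bound and other members was not tested.

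Partners in tRNA charging, a list of 19 genes, had 17 that were present and tested. The list held complex scaffolds, transamidation, selenocysteine and tRNA end-processing genes, and other genes that act on tRNA such as PTRH2 and PUS1. With SNF5, 5 fell and 0 rose by edgeR, where 16.5% of all genes fell and 17.6% rose, and the median was -0.14 against -0.03 for all genes. The 5 were ELAC2, which trims tRNA 3′ ends (-0.25), PTRH2, a peptidyl-tRNA hydrolase (-0.30), AIMP2, a scaffold of the complex (-0.18), PUS1, a pseudouridine synthase (-0.20), and SEPHS1 (-0.21). With OMOMYC none of the 17 passed by edgeR. An unadjusted p under 0.05 was reached by 7 of them and by 4388 of all 15060 genes. In the amino acid response list of 30 genes, 17 fell and 3 rose with SNF5 (median -0.26), against the same 16.5% and 17.6% of all genes. With OMOMYC, 12 of the 30 fell and 0 rose by edgeR (median -0.31, against 0 for all genes), where 4.42% of all genes fell and 4.1% rose. With OMOMYC the smallest adjusted p-values belonged to ATF4 itself (-0.43), CBS (-0.59), SLC3A2 (-0.29), PSAT1 (-0.57), MTHFD2 (-0.42) and PHGDH (-0.34), genes of cysteine, serine and one-carbon metabolism and amino acid transport. With SNF5 they belonged to NUPR1 (-0.63), VLDLR (1.53), PYCR1 (-0.68), PHGDH (-0.43), EIF4EBP1 (-0.47) and SLC3A2 (-0.27), all log2 fold changes of gene body counts.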

How the data were processed

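Members and gene lists were chosen with earlier results of these data known. Per the study's methods, the authors trimmed PRO-seq reads, aligned them to hg19 with Bowtie2, removed rRNA reads and low mapping quality, and deposited raw counts per RefSeq transcript, with a gene body density (a coverage signal in reads per bp, used here for gene length). The authors called MACS2 peaks in each sample, on hg19 for ChIP-seq at a q-value of 0.01 and on hg38 for ATAC-seq, and deposited the fold enrichment (a ratio) and −log10 p and q of each peak.

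Here 1 transcript was kept per symbol, the one with most reads. Genes with a mean of at least 10 counts were tested with edgeR 4.0.16 (R 4.3.3; quasi-likelihood, all 9 samples, replicate number as block, RLE factors from gene body counts for both regions). The pausing index was tested as the interaction of region and construct, with a term for each sample. Values are relative to all genes. With construct means subtracted, samples of the same number deviated together in gene bodies (r of 0.767 to 0.889). Pairs of different numbers had r of -0.675 to 0.128, and the subtraction pushes these down when same-number pairs correlate. The study's model had a batch term. Numbered ratios added 0.5 reads. DESeq2 1.42.0 was an alternative. The tests were tried on simulated data. Members named were all called genes, the highest and lowest of each comparison, MYC-bound genes and HARS with HARS2, and up to 6 genes of the other lists. Start positions came from the table, GENCODE and RefSeq (GRCh38.p14), with 155 of 20367 symbols unmatched.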

Additional observations from a re-analysis of the deposited data

Results flagged for a closer look

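EARS2, the mitochondrial glutamyl-tRNA synthetase, was the 1 synthetase gene of 33 tested whose gene body counts differed between SNF5 and OMOMYC by a direct test, which 18.9% of all 15060 genes passed. Its log2 fold change of gene body counts for SNF5 against OMOMYC was -0.445 (SE 0.073, adjusted p = 0.00372 by edgeR's quasi-likelihood test), lower in 3 of 3 numbered pairs. It did not pass without replicate 1 (-0.464) or without the replicate block (-0.445), and passed without replicate 2 and without replicate 3. That it was the single member depended on the fit. Without replicate 3, 15 members passed (11 higher and 4 lower with SNF5), as did 6232 of all 14939 genes tested there. With only the 2 groups compared, PARS2 passed as well. EARS2 also had a MYC peak in both EGFP samples, and its start lies 166 bp from that of UBFD1 on the opposite strand. Groups of 3 samples were not searched for single outlying samples.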

How the results depend on the processing

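Members passing numbered 12, 7 and 1 in gene body counts (SNF5 against EGFP, OMOMYC against EGFP, SNF5 against OMOMYC), 0, 0 and 0 in promoter-proximal counts and 1, 1 and 0 in the pausing index. Without the replicate block all of these were 0, and all 22 calls kept their direction. Leaving out 1 replicate gave 0 to 22, 0 to 22 and 0 to 15 in gene body counts, 0 to 2 (IARS and MARS2) and 0 to 1 (IARS) in promoter-proximal counts against EGFP, and 0 to 1 and 0 to 4 in the pausing index against EGFP, the highest gene body and index counts coming without replicate 3. The 4 were GARS, IARS, NARS and TARS. DESeq2 gave 12 for OMOMYC in gene bodies. A mean of at least 50 counts gave 2 (IARS and TARS) for the OMOMYC index. Fitting only the 2 groups compared gave 8 in place of 12 for SNF5 in gene bodies, 0 of them higher. KARS, HARS2, TARS2 and NARS2 then did not pass. For OMOMYC in gene bodies it gave 8, with AARS lost and NARS2 and WARS gained. It gave 2 (EARS2 and PARS2) for SNF5 against OMOMYC in gene bodies and 0 for the SNF5 index. TMM factors and no filter changed no member count by more than 1.5 times, and no call reversed. Counts over all genes moved further: gene body calls with OMOMYC went from 1284 to 2097 with DESeq2 and 1943 with only the 2 groups, promoter-proximal calls from 480, 202 and 93 to 790, 305 and 258 with no filter, from 480 and 93 to 313 and 61 with DESeq2 and to 319 and 35 with a mean of at least 50, SNF5 calls with own-region scaling to 993 and, in the index, from 409 to 820, and with only the 2 groups SNF5 against OMOMYC went from 93 to 292 in promoter-proximal counts and from 137 to 329 in the index, and the SNF5 index from 409 to 176. Without the block, gene body calls went from 5131, 1284 and 2848 to 225, 1 and 75, and the others to 0. Leaving out 1 replicate moved gene body calls to between 1428 and 8493, 2 and 6716, and 748 and 6232, promoter-proximal calls to between 47 and 996, 3 and 886, and 21 and 484, and index calls to between 4 and 620, 0 and 954, and 6 and 484, so the shares of all genes that passed rest on which replicates entered. With each region scaled by its own total, the share of higher calls among all genes went from 90.6 to 52.0% (OMOMYC) and 58.1 to 78.1% (SNF5 against OMOMYC) in promoter-proximal counts, and from 96.4 to 65.8% and 10.2 to 45.5% in the index, where IARS kept its call. For SNF5 promoter-proximal counts it went from 61.9 to 50.1%. MYC-bound members numbered 27 in place of 8 with a peak in either EGFP sample or without replicate 1, and 8 without replicate 2, and a q-value of 0.0001 left 6. The causes were not tested.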

Other observations

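VARS and VARS2, the cytosolic and mitochondrial valyl enzymes, were listed at 0 reads in all 9 PRO-seq samples. They bound a stretch of chromosome 6 (hg19 30881982 to 31763712) in which 37 of 49 genes were at 0 in both regions in all samples, against 161 of 999 other chromosome 6 genes and 7.6% of all symbols. In the MYC data the same stretch held 5 peaks of EGFP sample 2, with fold enrichments of 8.82 at VARS and 6.59 at VARS2, and ATAC-seq summits lay at VARS2 in EGFP sample 2 (fold enrichment 4.41), OMOMYC sample 2 (5.99) and SNF5 samples 1 and 2 (4.49 and 5.57).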
